A study of Homo sapiens with 4 samples.

Results

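Transforming growth factor beta (TGF-beta) is a secreted cytokine, and the 10 genes described here encode its 3 ligands (TGFB1, TGFB2 and TGFB3), 3 receptors (TGFBR1, TGFBR2 and TGFBR3) and 4 of the SMAD proteins that carry or limit its signal (SMAD2, SMAD3, SMAD4 and SMAD7). They were found by symbol among the 39634 entries with values of a gene count table, and all 10 had 1 entry each. TGFB1 was picked because it was lower in these data, so its values are a description and carry no test, while the other 9 came in as its family. All 10 were among the 15336 genes that passed a filter on low counts. Polyadenylated RNA was sequenced from BEAS-2B, an established line of human bronchial epithelial cells, grown in N2B27 medium. There were 2 libraries labelled Fer knockdown (FerKD), from cells with a short hairpin RNA against FER, a cytoplasmic tyrosine kinase, and 2 control libraries (CTL), from cells with a control hairpin. Nothing in the labels says whether replicates were grown separately, so the p-values may reflect technical spread alone.

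TGF-beta is made as an inactive complex with its own propeptide and must be released before it can act. The free dimer binds the type II receptor TGFBR2, which recruits and phosphorylates the type I receptor TGFBR1, and this kinase phosphorylates SMAD2 and SMAD3. These join SMAD4 and enter the nucleus to regulate genes, among them SMAD7, whose product blocks the receptor. In airway epithelium the pathway is known for halting cell division and for promoting mesenchymal features.

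The FerKD libraries held 21422976 and 25169713 counts, and the CTL libraries held 21772587 and 22857051. FER itself did not show the labelled knockdown: it had 17.8 and 20.1 depth-scaled counts (CPM) in the FerKD libraries, against 16.3 and 21.2 CPM in CTL libraries (log2 fold change 0.02 ± 0.17 SE, adjusted p = 0.976). Directions below are therefore those of the libraries labelled FerKD. Genes of the mitochondrial chromosome took 9.37% to 9.62% of counts in the FerKD libraries and 16.9% to 19.4% in CTL libraries. The CTL libraries lay farther apart (median absolute log2 difference over genes 0.241) than the FerKD libraries did (0.111). Of 9 airway epithelial markers, 6 were high enough to test, led by the keratins KRT8 and KRT18, while the basal cell markers KRT5 and TP63 had at most 0.528 and 0.301 CPM in any library and the lung lineage factor NKX2-1 had 0 counts. Of 9 fibroblast markers, 5 were tested, with a summed level of 1251 to 1293 CPM in FerKD libraries and 1830 to 2063 CPM in CTL libraries. DCN, a fibroblast gene, was at 0 counts throughout, and endothelial and blood markers summed to at most 2.98 and 25.4 CPM in any library.

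The start regions of the 3 ligand genes are shown because TGFB1 differs from TGFB2 and TGFB3 in which short elements its promoter holds. A link between these elements and the values below was not tested. Each line gives the 250 bases before a transcription start, from RefSeq on GRCh38.p14, 5′ to 3′ on the gene's strand. Capitals mark 3 motifs found on either strand, which do not overlap each other: the GC box GGGCGG, the TATA box TATAAA and the core of the cyclic AMP response element, TGACGT.
TGFB1, chr19:41353923-41354172, minus strand: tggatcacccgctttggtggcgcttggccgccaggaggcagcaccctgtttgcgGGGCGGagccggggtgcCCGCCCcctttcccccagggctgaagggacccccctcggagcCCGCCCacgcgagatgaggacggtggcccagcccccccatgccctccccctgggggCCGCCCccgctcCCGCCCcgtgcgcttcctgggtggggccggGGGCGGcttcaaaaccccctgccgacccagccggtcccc
TGFB2, chr1:218345086-218345335, plus strand: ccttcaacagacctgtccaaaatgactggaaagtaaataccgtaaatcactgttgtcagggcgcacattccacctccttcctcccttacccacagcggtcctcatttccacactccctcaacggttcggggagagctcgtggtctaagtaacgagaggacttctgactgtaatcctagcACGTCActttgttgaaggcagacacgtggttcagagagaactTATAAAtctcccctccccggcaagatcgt
TGFB3, chr14:75981996-75982245, minus strand: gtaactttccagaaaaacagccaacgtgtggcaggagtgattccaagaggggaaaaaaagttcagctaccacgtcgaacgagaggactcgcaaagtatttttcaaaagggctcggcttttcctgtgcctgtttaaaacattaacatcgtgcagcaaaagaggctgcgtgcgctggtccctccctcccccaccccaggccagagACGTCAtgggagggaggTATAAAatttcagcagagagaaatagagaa
The TGFB1 window held 6 GC boxes and neither of the other motifs, with 76.8% G and C. The TGFB2 window held no GC box, 1 TATA box starting 29 bases before the start and 1 response element core, with 50.4% G and C. The TGFB3 window shown had the same makeup, with its TATA box starting 30 bases before the start and 49.2% G and C, while the window at the other TGFB3 start in RefSeq held none of the 3 motifs. Of 35116 such windows of all genes, 42.6% held a GC box, 10.7% a TATA box and 7.1% the response element core. All 10 members had at least 1 window in the table. Besides the 2 ligand windows above, the only member window with a TATA box was 1 of the 3 of SMAD7. GC boxes were not particular to TGFB1: a single window held up to 6 in TGFBR1, 4 in SMAD3 and 3 in SMAD2. It held up to 2 in TGFBR2, TGFBR3 and SMAD4, and 0 in SMAD7. These are matches of letters and not measured binding sites.

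Levels of different genes were compared as TPM, in which counts are divided by gene length before they are scaled to depth. The mitochondrial share enters TPM, and on this scale the median of all tested genes was 0.45 higher (log2) in FerKD libraries. Levels are therefore compared between genes here and not between the groups. TGFB1 was the most abundant member at 157.6 and 153.4 TPM in the FerKD libraries, against 183.9 and 176.0 TPM in CTL libraries. TGFBR2 came next, with 127.4 and 130.5 TPM in the FerKD libraries and 78.7 and 111.4 TPM in CTL libraries, and SMAD3 followed in all 4 libraries, with 60.5 and 61.1 TPM in FerKD libraries and 44.2 and 50.4 TPM in CTL libraries. A wide step lay below these 3: TGFB2, TGFBR1, SMAD4, TGFB3 and SMAD2 lay between 7.68 and 13.9 TPM in FerKD libraries and between 5.26 and 18.3 TPM in CTL libraries. In CTL libraries TGFB3, TGFBR1 and SMAD4 did not differ in level beyond the spread of their 2 libraries, nor did TGFB2 and TGFBR1 in the FerKD libraries. SMAD7 (5.75 and 6.30 TPM in FerKD, 2.79 and 3.53 TPM in CTL) came next to last and TGFBR3 (3.44 and 3.28 TPM in FerKD, 1.73 and 2.20 TPM in CTL) came last in every library.

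By deposited lengths, a single gene held most of the level within each role. TGFB1 made up 87.4% and 86.7% of the summed ligand TPM in the FerKD libraries, against 91.1% and 87.2% in CTL libraries. TGFBR2 made up 89.4% and 89.0% of the receptor TPM in FerKD libraries, against 89.9% and 91.7% in CTL libraries. SMAD3 made up 88.7% and 88.3% of the summed SMAD2 and SMAD3 TPM in FerKD libraries, against 89.4% and 89.8% in CTL libraries. The SMAD2 entry is 36426 bases long in the deposited table, against 9330 for SMAD3, which lowers its level per length. Its longest coding transcript is also long, at 34526 bases, against 6247 for SMAD3, so levels by that length, given next, keep the imbalance. Before division by length, SMAD2 had 87.2 and 92.7 CPM in FerKD libraries and 80.8 and 88.4 CPM in CTL libraries. SMAD3 had 176 and 179 CPM in FerKD libraries and 174 and 199 CPM in CTL libraries. With the longest coding transcript of GENCODE release 29 as the length, the first 3 genes were the same in every library, but TGFBR2 (58.9 and 60.9 CPM per kilobase) lay above TGFB1 (57.7 and 56.6) in the FerKD libraries, while TGFB1 stayed first in CTL libraries (91.0 and 87.4, against 49.2 and 69.9 for TGFBR2). By deposited lengths, TGFB2 made up 57.7% ± 2.26 of TGFB2 and TGFB3 together in FerKD libraries and 62.8% ± 10.9 in CTL libraries (SD, n = 2 each, exact permutation test over libraries, two-sided p = 1, where the smallest p that 2 against 2 allows is 0.333). This order of the 2 ligands depends on the length used: by the longest coding transcript TGFB2 had 4.77 and 5.24 CPM per kilobase in FerKD libraries and 4.98 and 9.26 in CTL libraries, and TGFB3 had 6.44 and 6.21 in FerKD libraries and 7.001 and 6.69 in CTL libraries, so that TGFB3 lay above TGFB2 in every library but CTL replicate 2.

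**Figure D1:**
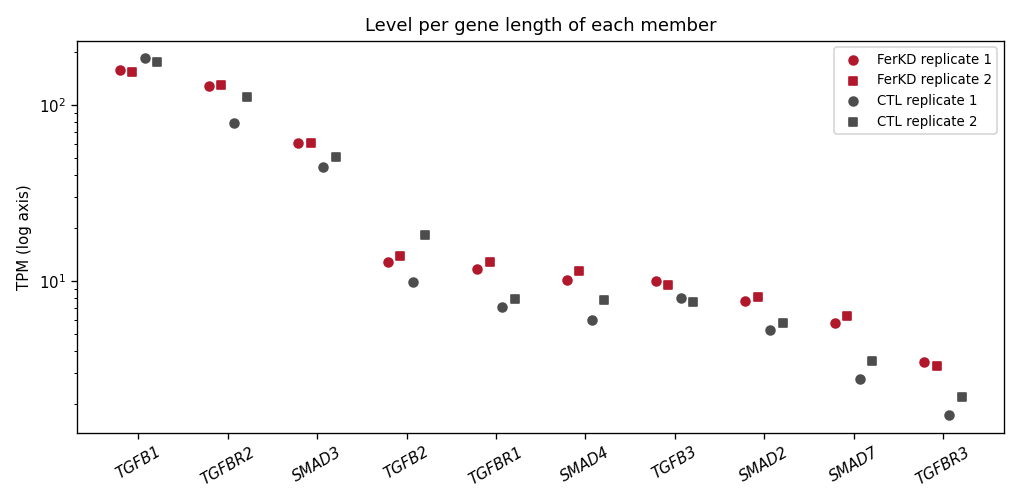
Level per gene length (TPM, log axis) of each member, ordered by its mean in the FerKD libraries, with 1 point per library. TGFB1, TGFBR2 and SMAD3 lie above the other 7 genes in all 4 libraries, and TGFBR3 is lowest in each.

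Differences between the groups are given on another scale, CPM scaled by the trimmed mean of M-values (TMM), because the mitochondrial share enters TPM. On the TPM scale the median of all tested genes was 0.45 higher (log2) in FerKD libraries, and it was 0.01 both on the scaled CPM and on TPM without the mitochondrial chromosome.

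Among the ligands, TGFB1 was the member with the lowest fold change and the tightest libraries. It had 159.7 and 156.7 CPM in the FerKD libraries, against 252.0 and 242.0 CPM in CTL libraries. The groups were far apart compared with the distance inside either one. The log2 fold change was -0.64 ± 0.11 (SE), 1.56-fold lower in FerKD libraries, and 3.79% of all tested genes had a lower fold change. It is 1 of the 56 lower genes, 0.365% of those tested, that passed an adjusted p of 0.05, and it was picked on that contrast. It no longer passed when FerKD replicate 1 or FerKD replicate 2 was left out, although its fold change stayed at -0.66 and -0.63, nor with library totals as the only scaling, where it was -0.48 and the median over all genes 0.18. Without the mitochondrial chromosome it was -0.65, and on the TPM scale it was -0.21, where the median of all genes was 0.45. In bulk RNA, less TGFB1 RNA per cell and fewer cells that make it cannot be told apart. Of the exonic bases of TGFB1, 6.64% overlap HNRNPUL1 on the opposite strand, and the strand used in counting is not given in the sources used here. HNRNPUL1, named after its values were seen, had 418 and 441 CPM in FerKD libraries and 563 and 658 CPM in CTL libraries (log2 fold change -0.51, adjusted p = 0.0831), and its part in the TGFB1 counts was not tested.

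TGFB2, the ligand that depends most on the co-receptor TGFBR3 for receptor binding, was set apart by its control libraries. It had 24.1 and 26.5 CPM in the FerKD libraries, against 25.1 and 46.8 CPM in CTL libraries. CTL replicate 1 lay among the FerKD values and CTL replicate 2 was 1.85 times as high, a wider step than 97.6% of genes showed between those 2 libraries. The log2 fold change was -0.51 ± 0.24 (SE, 95% interval -1.05 to 0.04, adjusted p = 0.313). Without CTL replicate 2 it was -0.01, and without CTL replicate 1 it was -0.89. Each of these fits holds 1 control library, so its spread comes from the FerKD pair alone. The TGFB2 value therefore rests on which control library is used. Of its exonic bases, 26.6% overlap TGFB2-OT1, a gene on the same strand that had 0 counts in every library. How reads in the shared bases were assigned was not tested. The 0 counts therefore do not show that the overlap left the counts and level of TGFB2 unchanged. Overlaps with exons of other genes came to 7.37% for SMAD4, 3.32% for TGFB3 and 2.00% for SMAD3, and the other members had none.

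TGFB3, the remaining ligand, had 16.2 and 15.7 CPM in FerKD libraries and 17.7 and 16.9 CPM in CTL libraries. The FerKD values lay just below the CTL values, by about the distance between replicates (log2 fold change -0.11 ± 0.15 SE, 95% interval -0.45 to 0.23, adjusted p = 0.750). Its sign depends on the scaling: it was 0.05 with library totals alone (adjusted p = 0.875) and 0.32 on the TPM scale.

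**Figure D2:**
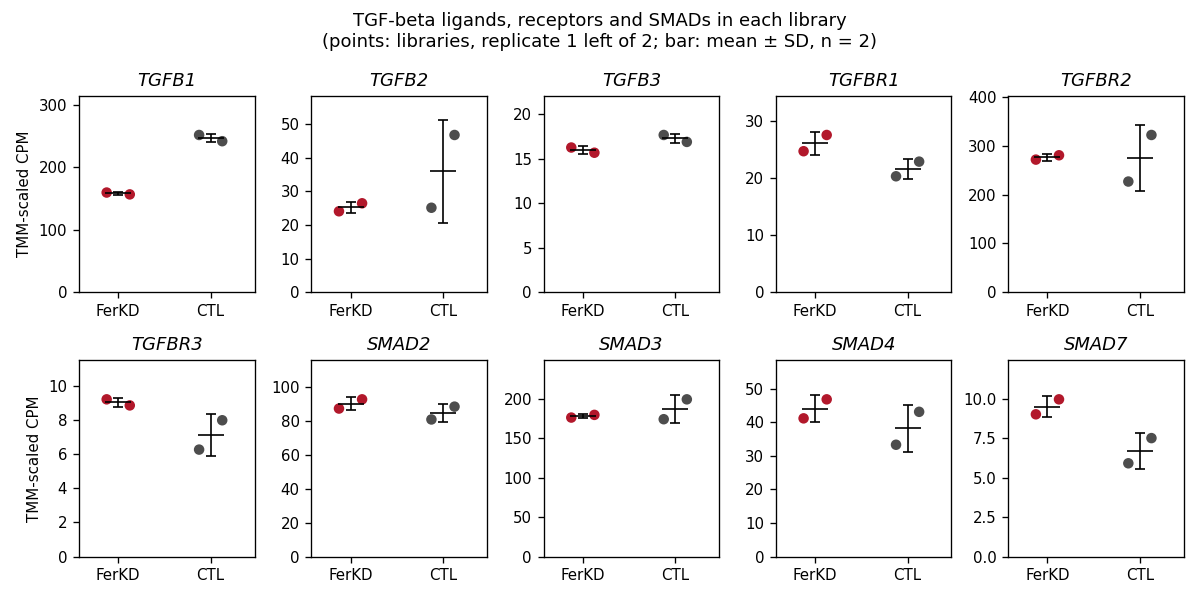
TMM-scaled CPM of each of the 10 members (panels, each with its own axis from 0), with 1 point per library and the mean ± SD (n = 2) as a bar, FerKD left of CTL. TGFB1, which was picked because it was lower here, separates the groups by more than its replicates differ. In TGFB2 and TGFBR2 the CTL libraries straddle the FerKD ones or reach far above them.

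Among the receptors, TGFBR2, which binds the ligand first, had 272 and 281 CPM in FerKD libraries and 227 and 323 CPM in CTL libraries. Both FerKD values fell between the CTL values. The log2 fold change was 0.01 ± 0.16 (SE, 95% interval -0.35 to 0.36, adjusted p = 0.986). Its direction followed the control library kept: it was -0.23 without CTL replicate 1 and 0.26 without CTL replicate 2.

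TGFBR1, the signalling kinase, had 24.7 and 27.6 CPM in FerKD libraries and 20.3 and 22.9 CPM in CTL libraries. The FerKD values lay above both CTL values, but the gap between the groups was smaller than the distance inside each (log2 fold change 0.27 ± 0.15 SE, 95% interval -0.06 to 0.61, adjusted p = 0.384). It was 0.19 without CTL replicate 1 and 0.34 without CTL replicate 2. TGFBR3, or betaglycan, a co-receptor without kinase activity that presents ligand to TGFBR2, had 9.20 and 8.85 CPM in FerKD libraries and 6.26 and 7.98 CPM in CTL libraries. Here too the groups did not overlap, at a log2 fold change of 0.34 ± 0.20 (SE, 95% interval -0.11 to 0.79, adjusted p = 0.414). The TGFBR3 value was 0.17 without CTL replicate 1 and 0.50 without CTL replicate 2.

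The receptor-regulated SMADs, the direct substrates of TGFBR1, overlapped between the groups. SMAD2 had 87.2 and 92.7 CPM in FerKD libraries and 80.8 and 88.4 CPM in CTL libraries (log2 fold change 0.09 ± 0.13 SE, 95% interval -0.19 to 0.37, adjusted p = 0.768). With 1 library left out it lay between 0.0207 (without CTL replicate 1) and 0.13. SMAD3 had 176 and 179 CPM in FerKD libraries and 174 and 199 CPM in CTL libraries (log2 fold change -0.07 ± 0.12 SE, 95% interval -0.34 to 0.20, adjusted p = 0.818). The sign of SMAD3 turned with the scaling (0.09 with library totals alone and 0.36 on the TPM scale) and without CTL replicate 2 (0.01).

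SMAD4, the shared partner of the signalling SMADs, had 41.2 and 46.8 CPM in FerKD libraries and 33.3 and 43.1 CPM in CTL libraries. The groups overlapped, at a log2 fold change of 0.20 ± 0.16 (SE, 95% interval -0.15 to 0.56, adjusted p = 0.558). It was 0.0254 without CTL replicate 1, 0.38 without CTL replicate 2, and 0.29 and 0.11 without FerKD replicate 1 and 2. SMAD7, the inhibitory SMAD, had 9.03 and 9.98 CPM in FerKD libraries, against 5.92 and 7.52 CPM in CTL libraries, from 205 and 265 counts in FerKD and 121 and 163 counts in CTL. Both FerKD values were above both CTL values. Its log2 fold change of 0.50 ± 0.20 (SE) was the highest of the 10 members, with a 95% interval of 0.05 to 0.95 for the single gene and an adjusted p of 0.238 over all genes. It was 0.33 without CTL replicate 1, 0.66 without CTL replicate 2 and between 0.42 and 0.57 with either FerKD library left out.

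**Figure D3:**
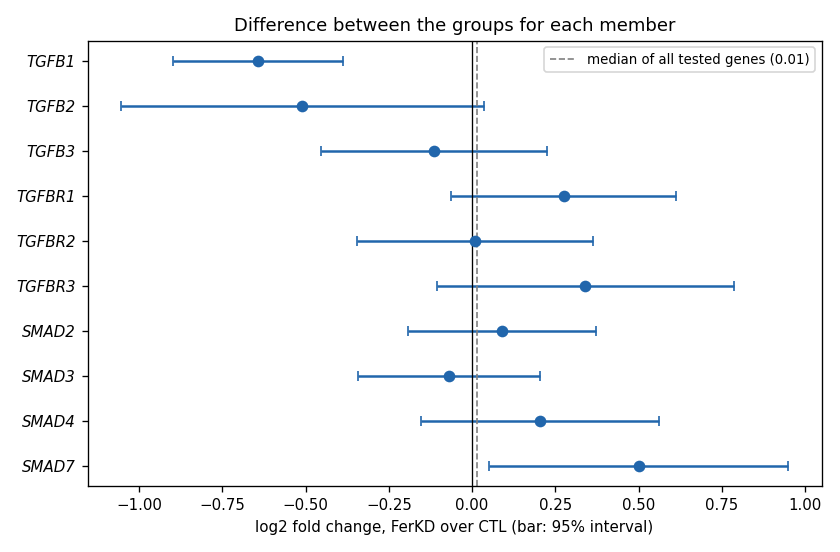
Log2 fold change (FerKD over CTL) of each member with its 95% interval from the fit over all genes, against 0 and the median of all tested genes (0.01). TGFB1, at -0.64, was picked for its place here, and of the other 9 only the SMAD7 interval (0.05 to 0.95) leaves out 0, before any adjustment over genes.

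Of the 9 members other than TGFB1, 0 passed the adjusted threshold in edgeR's test, where 0.646% of all tested genes did. Of these 9, 1 had an unadjusted p under 0.05, where 17.7% of all genes did, and 0 passed in DESeq2, where 3.78% of all genes did. Their median log2 fold change was 0.09, against 0.01 over all genes, with 6 values above 0 and 3 below. In 3 of them the FerKD libraries lay above both CTL libraries and in 1 below, and over all genes 25.8% lay above and 23.4% below. The count of members past the threshold depended on the control libraries. Without CTL replicate 1, 2 of the 9 passed, both lower (TGFB2 and TGFBR2), where 29.5% of all genes passed. Without CTL replicate 2, 4 of the 9 passed, all higher (TGFBR1, TGFBR2, SMAD4 and SMAD7), where 20.6% of all genes passed. In each case 1 library stands for its group and is assumed to vary like the FerKD pair.

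**Figure D4:**
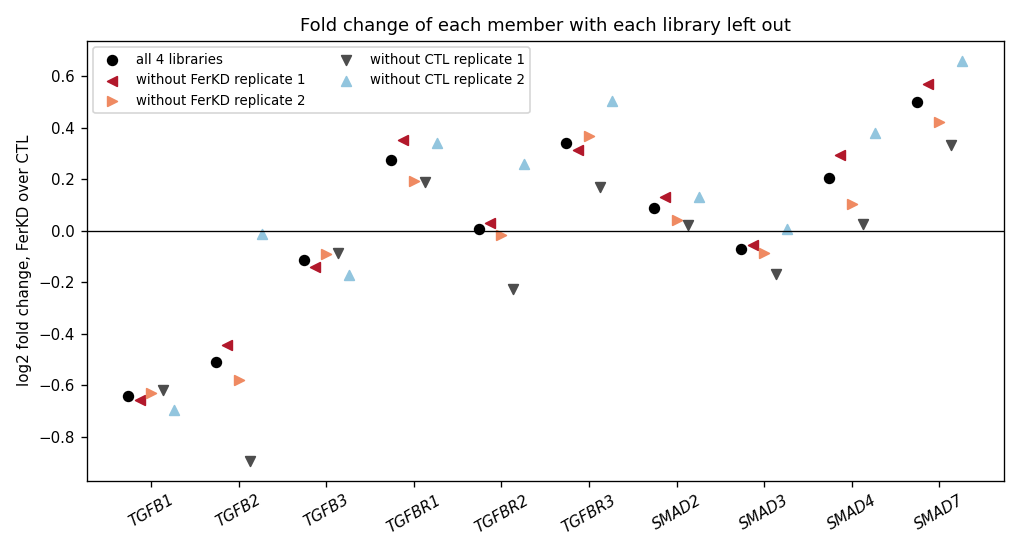
Log2 fold change of each member with all 4 libraries and with each library left out in turn. TGFB1 stays between -0.70 and -0.62, but it was picked on the contrast of these same libraries, so its narrow range is a description only. TGFB2 runs from -0.89 to -0.01 and TGFBR2 crosses 0, according to which CTL library is left out.

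The other genes of the pathway were described by 8 lists with 175 genes in the table, the members left out, of which 149 were tested. In all, 2 fell and 0 rose in edgeR's test (0.365% and 0.28% of all genes), 32 had an unadjusted p under 0.05 (17.7% of all genes did), and DESeq2 called 9 lower and 0 higher (2.16% and 1.62% of all genes). Their median log2 fold change was -0.08, against 0.01 over all genes.

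In the list of the latent complex and its activation, 1 of 23 tested genes fell and 0 rose in edgeR's test, 3 fell in DESeq2 (2.16% of all genes), and 6 had an unadjusted p under 0.05 (17.7% of all genes), with a median log2 fold change of -0.12. The gene was MMP2, a matrix metalloproteinase that can release latent TGF-beta, with 139.7 and 123.7 CPM in FerKD libraries and 240.4 and 249.4 CPM in CTL libraries. The groups were well separated (log2 fold change -0.90 ± 0.12 SE, adjusted p = 0.0182). It missed the threshold without FerKD replicate 1 or FerKD replicate 2 (adjusted p = 0.0568 and 0.320), with its fold change at -0.99 and -0.81. The list ranged from there to 1.55 for LRRC32, a cell-surface anchor of latent TGF-beta, named after its values were seen, which stayed under 1 CPM in every library (adjusted p = 0.224). The latent TGF-beta binding protein genes LTBP1, LTBP2 and LTBP3, also named after their values were seen, had log2 fold changes of -0.62, -0.53 and -0.22 (adjusted p = 0.331, 0.120 and 0.376), and in each both FerKD values were below both CTL values. The other gene of that family, LTBP4, also named after its values were seen, overlapped between the groups. It had 361.4 and 341.6 CPM in FerKD libraries and 376.0 and 326.6 CPM in CTL libraries (log2 fold change 0.00066, adjusted p = 0.998). In the whole list FerKD libraries lay below both CTL libraries in 9 of 23 genes and above in 6, against 23.4% and 25.8% of all genes.

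Among TGF-beta target genes, 1 of 42 tested fell and 0 rose in edgeR's test, 7 fell in DESeq2 (2.16% of all genes), 17 had an unadjusted p under 0.05 (17.7% of all genes), and the median log2 fold change was -0.22, the lowest of the 8 lists. Values were below 0 in 33 of the 42 (78.6%, against 48.1% of all tested genes). The share was similar in the lists of other receptors (77.8%) and of SMAD cofactors and regulators (72.7%). In the remaining lists it ran from 33.3% (extracellular antagonists) to 60.9% (latent complex and activation). Of the 42 target genes, FerKD libraries lay below both CTL libraries in 18 and above in 3, against 23.4% and 25.8% of all tested genes. TGFBI, a secreted matrix protein named for its induction by TGF-beta, fell to 497.4 and 502.7 CPM in FerKD libraries, against 779.0 and 740.6 CPM in CTL libraries (log2 fold change -0.60 ± 0.11 SE, adjusted p = 0.0461). It missed the threshold without FerKD replicate 1 or 2 (adjusted p = 0.563 and 0.660), with its fold change at -0.60 and -0.61, and without the mitochondrial chromosome (adjusted p = 0.0521), at -0.61. With library totals alone it was -0.44 (adjusted p = 0.0549). Scaled by library totals alone, the list stood at a median of -0.05 and all genes at 0.18, and the list's median was -0.33 and -0.10 without CTL replicate 1 and 2. The summed fibroblast markers, some of which (COL1A1, COL3A1 and VIM) are also in this list, were lower in the same FerKD libraries (1251 to 1293 CPM, against 1830 to 2063 CPM in CTL), as was the mitochondrial share, and their part in the list's values was not tested. Most of that sum came from VIM (-0.59, adjusted p = 0.0549) and THY1 (-0.77, adjusted p = 0.0302). PDGFRB overlapped between the groups (0.00935, adjusted p = 0.985), and COL3A1, at no more than 1.14 CPM in any library, stood at 1.39 (adjusted p = 0.248). These markers were named after their values were seen.

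Values of well-known SMAD-induced genes lay on both sides of 0. These genes were named after their values were seen. CCN2, or connective tissue growth factor, had 140.9 and 175.1 CPM in FerKD libraries and 70.2 and 138.3 CPM in CTL libraries (log2 fold change 0.60 ± 0.26 SE, adjusted p = 0.261). The CCN2 value in CTL replicate 2 was close to that of FerKD replicate 1. Among genes that limit the pathway, SMAD7 stood at 0.50 as given above, while the SMAD repressor SKIL and the membrane protein PMEPA1, which removes SMADs from the receptor, stood at -0.48 and -0.45 (adjusted p = 0.316 and 0.239). None of these 4 differences passed over all genes.

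**Figure D5:**
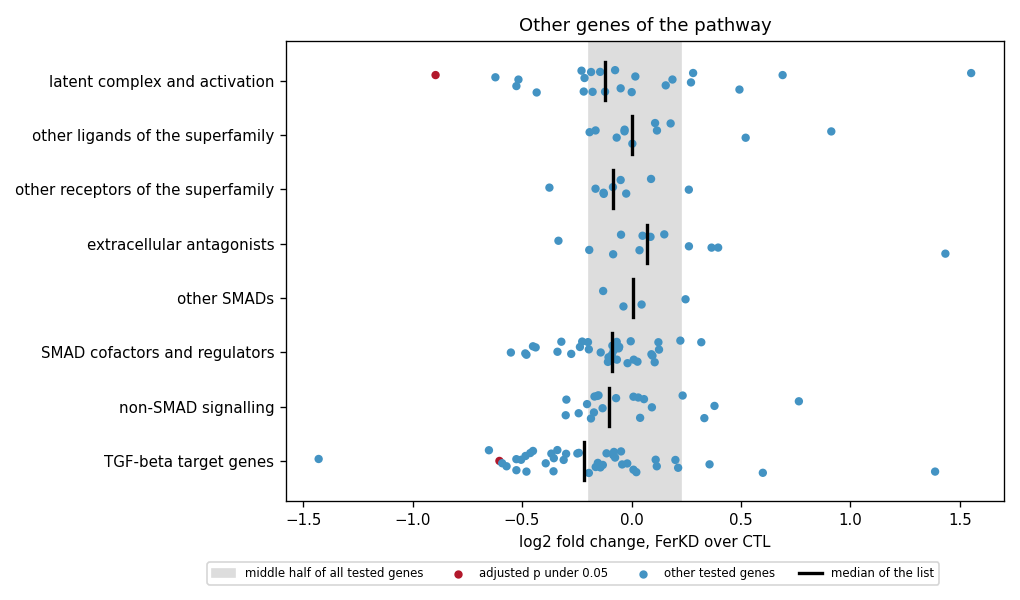
Log2 fold change (FerKD over CTL) of each tested gene in the 8 pathway lists, with list medians as black bars and the middle 50% of all tested genes shaded. TGF-beta target genes have the lowest median (-0.22), and the 2 genes past the threshold, MMP2 (-0.90) and TGFBI (-0.60), are in red.

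In the other 6 lists 0 of the tested genes passed in edgeR's test and 0 in DESeq2. The counts of an unadjusted p under 0.05 that follow are to be read against 17.7% of all tested genes. Of 11 other ligands of the superfamily, 1 had an unadjusted p under 0.05, and the closest were INHBB, an activin subunit (0.91, adjusted p = 0.193), and BMP8A (0.52, adjusted p = 0.308). Of 9 other receptors, 1 had an unadjusted p under 0.05, which was ENG, the co-receptor endoglin, at -0.38 (adjusted p = 0.168), followed by the bone morphogenetic protein receptor ACVR1 at -0.16 (adjusted p = 0.624). Of 12 extracellular antagonists, 4 had an unadjusted p under 0.05, led by FST, the activin-binding follistatin, at 0.40 (adjusted p = 0.181). Of the 4 other SMADs, 0 had an unadjusted p under 0.05, and SMAD5, which carries bone morphogenetic protein signals, and the inhibitor SMAD6 stood at 0.25 and -0.13 (adjusted p = 0.423 and 0.758). Of 33 SMAD cofactors and regulators, 4 had an unadjusted p under 0.05, led by the endocytic adaptors DAB2 (-0.49, adjusted p = 0.176) and HGS (-0.32, adjusted p = 0.213). Of 20 genes of signalling outside the SMADs, 1 had an unadjusted p under 0.05, which was the p38 kinase gene MAPK14 (0.38, adjusted p = 0.179), ahead of the GTPase gene RHOA (-0.24, adjusted p = 0.290).

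The genes whose levels followed TGFB1 most closely over the 4 libraries were sought among 11146 tested genes with at least 5 CPM, by the Euclidean distance of their centred log2 CPM. PIGT was nearest (distance 0.00454), with 406.6 and 399.7 CPM in FerKD libraries and 639.3 and 615.7 CPM in CTL libraries. UBE2L3, DCTN6, TGFBI and RTL8A followed at distances of 0.0360 to 0.0537. With 4 libraries in 2 groups, this likeness is mostly the shared size of the group difference, -0.59 to -0.67 on the log2 scale in these 5 genes.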

How the data were processed

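The authors deposited raw counts of reads for each gene in 1 table, beside gene symbols and lengths, per the file headers. HISAT2, featureCounts and DESeq2, and the builds hg19 and mm10, are named without versions or roles, per the submitters' processing notes, and no source used here gives the strand setting or annotation. The deposited gene lengths were taken to be in bases. Of 39635 rows, 1 held no values. The FerKD replicate 1 column has a shortened name and was taken for the knockdown sample numbered 1, there being no other.

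Counts were tested with edgeR 4.0.16 (R 4.3.3): filterByExpr, TMM factors, quasi-likelihood test, two-sided, no block, and Benjamini-Hochberg adjustment over 15336 genes at 0.05. Standard errors come from the fold change and the F statistic. TPM used the deposited lengths. Alternatives were other scalings, DESeq2 1.42.0, other filters, the replicate number as a block, the mitochondrial genes left out and each library left out. TPM-scale differences were added after seeing the data. The fit was tested on simulated counts. Exon overlaps and transcript lengths came from GENCODE release 29 (GRCh38), another build than hg19, so gene coordinates are not given.

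The members, lists and tests were chosen with earlier results of these data known. Named were all members and FER, and for each list up to 4 genes past the threshold or else the 2 with the smallest p, and the 5 genes nearest TGFB1. Any other gene is said to be named after its values were seen, apart from TGFB2-OT1, named for its overlap with TGFB2. The cell type markers named singly were also picked from their lists after their values were seen. Some genes are not reported here.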

Additional observations from a re-analysis of the deposited data

How the results depend on the processing

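The precision of every value is limited by 2 libraries a group and, for SMAD7 and TGFBR3, by 121 to 265 counts a library. The numbers of genes past the threshold that follow are raw counts. In the main fit, 149 pathway genes and 15336 genes in all were tested. Outside the main fit and DESeq2, the share of pathway genes past the threshold was not compared with that of all genes. The number of genes tested also changed, to 16068 without CTL replicate 1 and 16029 without CTL replicate 2. The counts from those other settings therefore do not show whether pathway genes passed more or less often than all genes. Of all genes, 99 passed the threshold (43 higher, 56 lower), 192 (81 and 111) with upper-quartile factors, 443 (396 higher) with library totals alone, 580 (249 and 331) in DESeq2, 993 (526 and 467) without a filter on low counts and 990 (537 and 453) with the replicate block, and 35 were lower without the mitochondrial chromosome. Leaving out 1 library gave 56 to 4734 genes, 31 to 2344 higher and 25 to 2390 lower, with CTL replicate 1 left out at the high end and FerKD replicate 2 at the low end. Pathway genes numbered 0 higher and 2 lower, and 0 higher and 9 lower in DESeq2, 1 higher and 14 lower without a filter, 1 higher and 11 lower with the replicate block, 1 lower with library totals alone, 1 lower without the mitochondrial chromosome, and 0 to 14 higher and 0 to 53 lower with 1 library left out.

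TGFB1 was at -0.48 with library totals alone, -0.21 on the TPM scale and -0.70 to -0.62 with 1 library left out, against -0.64, and in the other alternatives it moved by less than its replicate spread. Signs turned for TGFB3 and SMAD3 with library totals alone (0.0504 and 0.0941) and on the TPM scale (0.32 and 0.36), for SMAD6 with library totals alone (0.0343), and for TGFBR2 with a filter of 5 CPM (-0.00626) and on TPM without the mitochondrial chromosome (-0.0102). With 1 library left out, values ran from -0.169 to 0.00744 for SMAD3, from -0.162 to 0.194 for FER and from -0.228 to 0.261 for TGFBR2. The cause was not tested, except that library totals and TPM shift all genes (medians of 0.18 and 0.45). Replicate numbers are shared by label only, and deviations of same-numbered libraries had a correlation of 0.04 over genes. With the replicate block 0 of the 9 members other than TGFB1 passed.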
